A study of Mus musculus with 6 samples.

Results

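Among sorted cells of the mouse amygdala, 73 barcodes carried transcripts that mark the endothelial cells lining blood vessels. They were chosen on measured values: at least 500 detected genes, under 6% mitochondrial UMIs (unique molecular identifiers, each counting 1 captured transcript) and at least 6 UMIs in sum of *Flt1*, *Cldn5* and *Adgrf5*. These were 73 of 11103 barcodes that passed the gene and mitochondrial filters, and of 13546 barcodes in all. Library 1 held 24 of them, library 2 held 26 and library 3 held 23, or 0.56%, 0.844% and 0.615% of the filtered barcodes of each library. Exact binomial 95% intervals, which cover counting error only, were 0.359% to 0.832%, 0.552% to 1.23% and 0.39% to 0.922%. None of the 73 barcode sequences occurred in another library, although 8, 7 and 3 barcodes of all those deposited were shared between libraries 1 and 2, 1 and 3, and 2 and 3.

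The mice listed for these libraries were 16 young adult wild-type animals, labelled as male and of strain C57BL/6N, 4 in each behavioural group. Some pooled cells carried hashtags for which no mouse is listed. NoFC mice received no shock, FC mice were fear-conditioned, NoFR mice were conditioned without recall on the following day, and FR mice were conditioned and recalled. The amygdala was taken 90 min after the behaviour began and dissociated with inhibitors of transcription and translation in every group. Cells were sorted with the ACSA-2 antibody against ATP1B2, together with antibodies to CD11b, CD45 and O1, and are labelled as astrocytes, so endothelial cells entered these libraries only as far as the sort let them through. Library 1 had 42350059 gene UMIs over 5287 barcodes, library 2 had 31700569 over 3631 and library 3 had 33368825 over 4628.

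Endothelial cells of the brain form the blood-brain barrier. They are sealed to each other by tight junctions, carry few vesicles, pump lipophilic compounds back into the blood and import glucose, amino acids and hormones through dedicated carriers. Pericytes lie on their outer face within the same basement membrane, and astrocyte endfeet cover both, so fragments and pairs of these cells can travel together through a dissociation. Along the vessel tree, arterial, capillary and venous endothelial cells express partly different genes.

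The 3 genes that chose the barcodes are endothelial markers of different strictness. *Cldn5* encodes claudin-5, the main tight junction protein of the barrier, and lies on chromosome 16 of GRCm38 from 18776847 to 18778262, forward strand (ENSMUSG00000041378, GENCODE vM21). *Flt1*, on the reverse strand of chromosome 5 from 147561604 to 147726011 (ENSMUSG00000029648), encodes the VEGF receptor VEGFR1. *Adgrf5*, on the forward strand of chromosome 17 from 43360451 to 43459557 (ENSMUSG00000056492), encodes an adhesion G protein-coupled receptor.

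The label held for few of the 73. Of the filtered barcodes, 9607 had 0 UMIs of the 3 genes, and the number fell steadily from 710 with 1 UMI to 107 with 4, 55 with 5, 31 with 6 and 2 with 10. No barcode had between 11 and 48 UMIs, and 7 barcodes had 49 to 127. These 7 are called high-count barcodes here and the other 66, with 6 to 10 UMIs, low-count barcodes; the division was chosen after the values were seen. The high-count barcodes held 558 of the 1021 UMIs of the 3 genes, or 54.7%, and all 185 UMIs of *Cldn5*.

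Barcodes just inside and just outside the threshold were alike in what else they carried. All 31 barcodes with 6 UMIs of the 3 genes and all 55 with 5 UMIs had at least 10 UMIs of the pericyte genes *Vtn* and *Rgs5*. Their median *Vtn* and *Rgs5* counts were 127 and 115 UMIs, and their median depths 6807 and 6293 UMIs.

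Pericyte transcripts were present in most of the 73 barcodes. At least 10 UMIs of *Vtn* and *Rgs5* were found in 67 of them, or 91.9 ± 3.72% (mean ± SD, n = 3 libraries). At least 20 UMIs of the astrocyte glutamate transporter genes *Slc1a2* and *Slc1a3* were found in 4, or 5.57 ± 2.71%. Both sets were present in 3 barcodes, and 5 had neither, or 6.74 ± 6.01%. By library, the pericyte share was 23 of 24, 23 of 26 and 21 of 23 barcodes, with exact intervals of 78.9% to 99.9%, 69.8% to 97.6% and 72% to 98.9%.

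The division of the 73 followed these transcripts. All 66 low-count barcodes reached 10 UMIs of *Vtn* and *Rgs5*, and 3 of them also reached 20 UMIs of *Slc1a2* and *Slc1a3*. Of the 7 high-count barcodes, 5 had neither set. The one in library 1 had 194 UMIs of the astrocyte pair, and one in library 3 had 12 UMIs of the pericyte pair, 10 of them *Rgs5*. Since only 5 barcodes had neither set, all 73 and the high-count and low-count barcodes were described in their place.

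**Figure D1:**
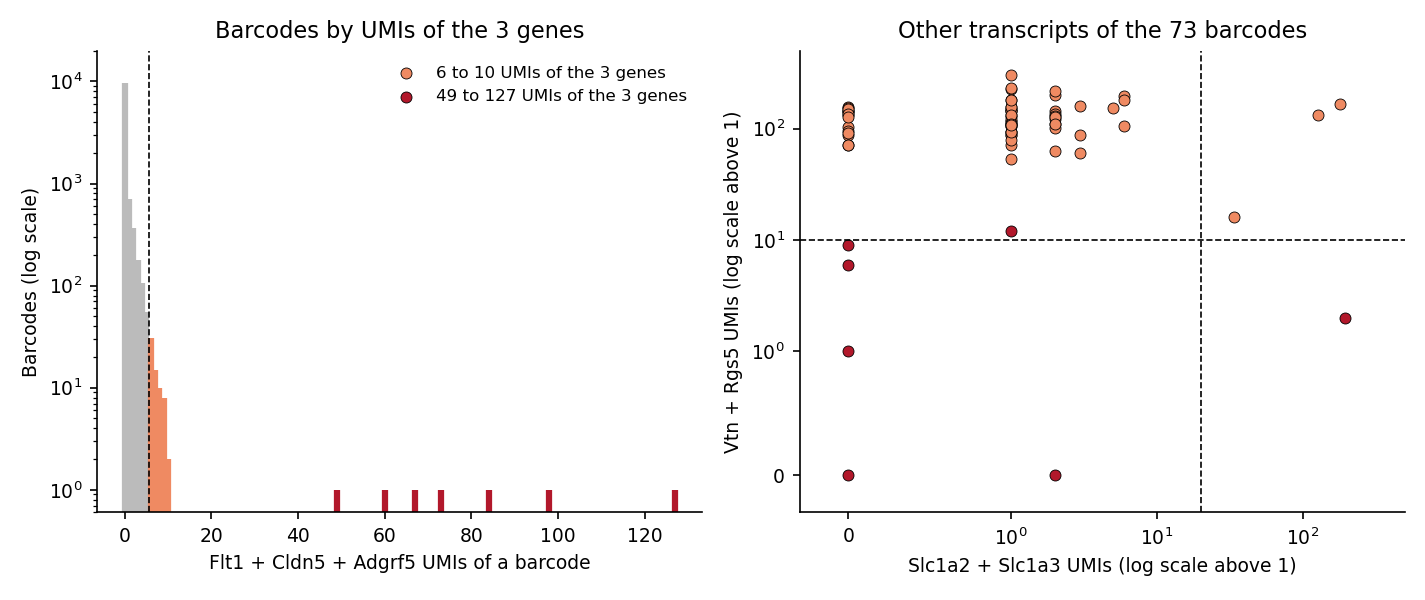
Left, number of filtered barcodes (log scale) by their summed UMIs of Flt1, Cldn5 and Adgrf5, with the threshold of 6 dashed; 66 barcodes have 6 to 10 UMIs, 7 have 49 to 127, and none lie between. Right, each of the 73 barcodes by its Slc1a2 and Slc1a3 UMIs and its Vtn and Rgs5 UMIs, thresholds dashed; all 66 low-count barcodes lie above the pericyte threshold, against 1 of 7 high-count barcodes.

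Other barcodes of the same libraries served as reference, and since the selection used transcripts of the same cells, levels beside them are a description with no test. Astrocyte-only barcodes (8144) met the astrocyte threshold alone and pericyte-only barcodes (2205) the pericyte threshold alone, both with under 6 UMIs of the 3 genes. Median depth was 7170 UMIs in high-count, 7401 in low-count, 4985 in pericyte-only and 10252.5 in astrocyte-only barcodes. Levels are in CPM: the UMIs of a gene, summed over the barcodes of a class in a library, per 1000000 UMIs of those barcodes. With 1 high-count barcode in library 1 and 3 each in libraries 2 and 3, and 56297 UMIs in all, 3 UMIs correspond to 53.3 CPM in the high-count class, against 5.76 CPM in the low-count class.

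Across all 73 barcodes, 58 of 208 detected genes of the endothelial and barrier lists were higher than in both reference classes in all 3 libraries, beside 4.26% of the 23536 genes detected. In low-count barcodes alone it was 18 of 206 detected list genes, beside 3.78% of the 23504 genes detected. Of the 25 genes with the largest ratios over the higher reference class, taking the lowest of the 3 libraries, *Cldn5* led, followed by the adhesion receptor gene *Adgrl4*, *Ly6c1*, the drug efflux pump gene *Abcb1a* and *Ly6a*. The remaining 20 were *Ptprb*, *Itm2a*, *Ly6e*, *Mecom*, *Spock2*, *Slc6a6*, *Pecam1*, *Flt1*, *Slco1a4*, *Pglyrp1*, *Fn1*, *Hmcn1*, *Sema3c*, *Rundc3b*, *Pdgfb*, *Tspan13*, *Klf2*, *Bsg*, *Atp10a* and *Adgrf5*. Without the high-count barcodes, the mean log2 ratio was above 0 for 7 of the 25. Among the genes furthest below both reference classes, *Dgkq*, *Nradd*, *Slc25a42* and *Ccdc106* had 0 UMIs in the 73 barcodes, which allows up to 5.2 CPM, and mean levels of only 8.76 to 12.8 CPM in pericyte-only barcodes.

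In the high-count barcodes, 84 of 208 detected list genes were higher than in both reference classes in all 3 libraries, beside 3.66% of the 23527 genes detected. The median log2 ratio over the list genes was 0.70, and over all detected genes it was -0.35. The selection fixed part of this excess: *Cldn5* is itself in the junction list and *Flt1* in the list of VEGF receptors, and the lists hold other genes that go with them. *Cldn5*, *Flt1* and *Adgrf5* stand among the 25 genes named above for the same reason, and nothing is read from the list counts that follow beyond the levels.

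Junction genes were the first group. Of 14 genes of tight and adherens junctions, 10 were higher in all 3 libraries. *Cldn5* was 2977, 2220 and 5087 CPM in libraries 1, 2 and 3, and at most 0.932 CPM in pericyte-only barcodes of any library. All 7 barcodes had it, with 41 UMIs in library 1, 28, 13 and 15 in library 2, and 55, 26 and 7 in library 3. Outside the 73 it was seen in 10 barcodes, with at most 2 UMIs. *Pecam1*, the endothelial adhesion molecule CD31, was 581, 832 and 462 CPM. *Cdh5*, encoding VE-cadherin, was found in 6 of the 7 barcodes, *Lsr*, a component of tricellular junctions, in 7, and occludin (*Ocln*) in 6. *Cgn* and *Marveld2* had 0 UMIs.

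Among 18 nutrient and ion carrier genes, all had a UMI in the high-count barcodes and 12 were higher in all 3 libraries, with a median log2 ratio of 3.13. The glucose transporter gene *Slc2a1* was 1452, 2577 and 3700 CPM, against 82.2 ± 2.07 CPM (SD, n = 3 libraries) in astrocyte-only barcodes. *Slco1c1*, which carries thyroxine, was 1888, 2656 and 2081 CPM, and *Slc7a5*, the light subunit of a large neutral amino acid carrier, 363, 1665 and 1619 CPM. Both were present in astrocyte-only barcodes too. There *Slco1c1* was the most abundant gene of this list, which summed to 1121 ± 15.5 CPM (SD, n = 3 libraries), and 14.1% of the barcodes had a UMI of *Slc7a5*. *Bsg*, encoding the chaperone of monocarboxylate transporters, was the most abundant of the 25 named genes at 8859, 11298 and 14163 CPM, and each of the 7 barcodes had 27 to 151 UMIs of it. The efflux pump genes *Abcb1a* (P-glycoprotein) and *Abcg2* were 1681 ± 261 and 1159 ± 130 CPM (SD, n = 3 libraries), and *Abcc4* was 730 ± 506 CPM. These were the 3 of 7 pump genes that were higher in all 3 libraries. *Abca1* and *Abcc6* had 6 and 2 UMIs, and *Abcb1b* and *Abcc1* had none.

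Genes of transport by vesicles gave a mixed picture. Of 13, 8 were higher in all 3 libraries, among them the caveolar coat gene *Cavin2*, with UMIs in 7 of 7 barcodes. The transferrin receptor gene *Tfrc* had UMIs in 6 barcodes and *Mfsd2a*, whose product limits caveolar transport at the barrier, in 5. *Plvap*, which marks fenestrated and immature endothelium, had 0 UMIs, as had the leptin receptor gene *Lepr*.

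Receptors for vessel growth factors and their ligands formed 2 further lists, which were not tested against each other. Of 12 receptor genes for VEGF, angiopoietin and TGF-beta, 9 were higher in all 3 libraries. *Flt1* was 4720, 6026 and 5145 CPM, *Kdr* (VEGFR2) 218, 238 and 925 CPM and *Tek* (the angiopoietin receptor) 145, 198 and 867 CPM. None of 8 ligand genes tested was higher in all 3 libraries. Of these, *Vegfc* had 7 UMIs, *Bmp6* and *Tgfb1* 5 each, *Vegfb* 2 and *Angpt2* 1, and *Vegfa*, *Pgf* and *Angpt1* had none. The ligand list summed to 381 ± 279 CPM, beside 367 ± 8.8 CPM in astrocyte-only and 214 ± 11.4 CPM in pericyte-only barcodes (SD, n = 3 libraries). *Vegfa* was 201 ± 3.17 CPM in astrocyte-only barcodes (SD, n = 3 libraries).

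Among transcription factors, 10 of 17 were higher in all 3 libraries, including *Erg* at 233 ± 157 CPM and the flow-responsive *Klf2* at 597 ± 307 CPM (SD, n = 3 libraries). Of 18 genes of the Wnt and barrier programme, through which astroglia and neurons maintain the barrier, 6 were higher, among them *Sox17* at 374 ± 275 CPM and *Lef1* at 979 ± 461 CPM. Of 8 genes for pericyte recruitment, *Pdgfb*, the ligand that holds pericytes on the vessel, was 697 ± 111 CPM, whereas its receptor gene *Pdgfrb* had 0 UMIs against 1736 ± 47.2 CPM in pericyte-only barcodes. The soluble guanylate cyclase genes *Gucy1a1* and *Gucy1b1*, which mediate the response to nitric oxide in mural cells, had 0 UMIs in the 7 barcodes, while the endothelial nitric oxide synthase gene *Nos3* was found in 6. Of 10 immediate early genes, 5 were detected in the 7 barcodes, with 39 UMIs in all. *Jun* had 15 UMIs in 5 barcodes and was higher in all 3 libraries, at 255 ± 53.9 CPM against 19.9 ± 1.77 CPM in pericyte-only barcodes (SD, n = 3 libraries). *Ier3* had 13 UMIs, *Ier2* and *Dusp1* 5 each and *Junb* 1, whereas *Fos*, *Fosb*, *Egr1*, *Atf3* and *Nr4a1* had none, which allows up to 53.3 CPM of each. The list summed to 627 ± 363 CPM, beside 265 ± 39.2 CPM in pericyte-only and 45.9 ± 2.54 CPM in astrocyte-only barcodes.

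**Figure D2:**
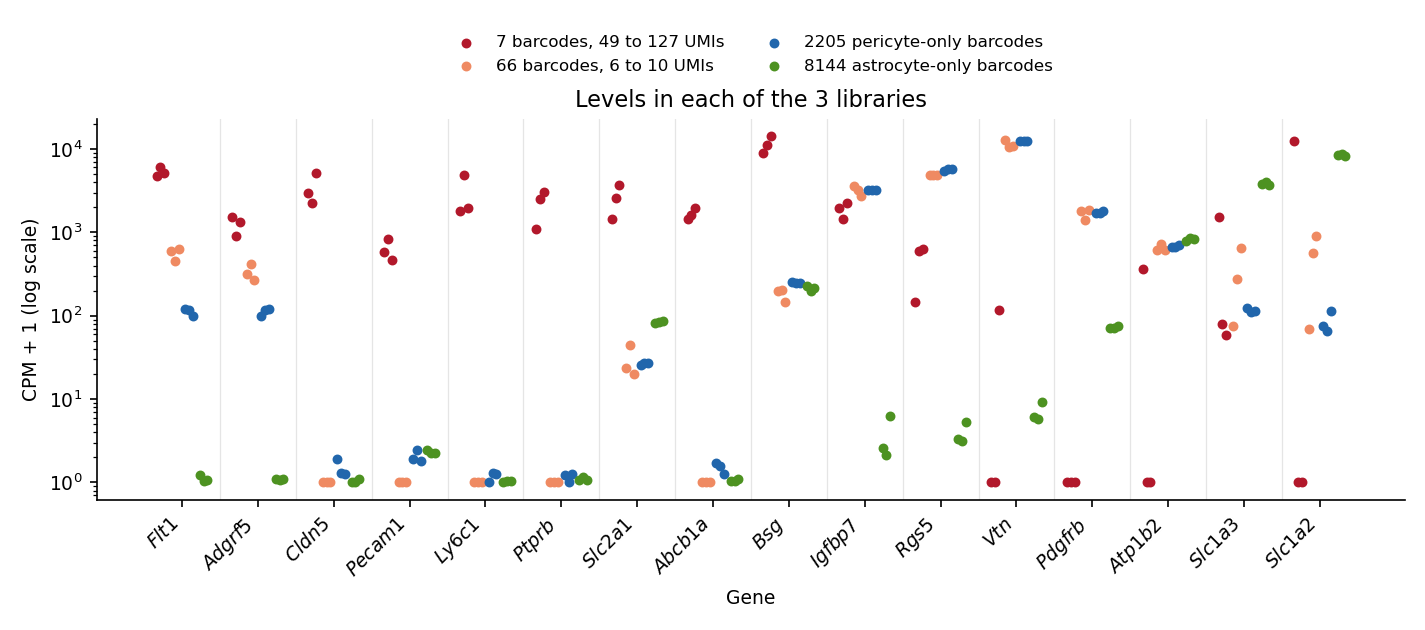
Level of 16 genes (CPM + 1, log scale) in high-count, low-count, pericyte-only and astrocyte-only barcodes, 1 point per library. Cldn5, Pecam1, Ly6c1, Ptprb and Abcb1a are at 0 in low-count barcodes, whose Vtn, Rgs5, Pdgfrb and Atp1b2 lie near those of pericyte-only barcodes.

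Markers of other cells were scarce in most of the 7. Of 10 pericyte markers, 6 had a UMI, 36 UMIs in all, and *Rgs5* was the most abundant with 497 CPM against 5622 CPM in the pooled pericyte-only barcodes. *Vtn* was seen in 1 barcode with 2 UMIs, and *Kcnj8*, *Abcc9* and *P2ry14* were at 0. Summed pericyte markers were 290, 634 and 925 CPM in the 3 libraries, against 31321 ± 139 CPM in pericyte-only barcodes. Summed astrocyte markers were 18661, 595 and 173 CPM, and 257 of their 275 UMIs came from the library 1 barcode, where *Slc1a2* alone had 173. Markers of perivascular stroma, oligodendrocytes, red blood cells and ependyma had 0 UMIs in all 7, as did *Ptprc* and *Itgam*, which encode the gated antigens CD45 and CD11b. *Atp1b2*, which encodes the antigen used for sorting (chromosome 11, 69599736 to 69605942, reverse strand), had 5 UMIs in the library 1 barcode and 0 in the other 6. It was 677 ± 18.2 CPM in pericyte-only and 821 ± 26.1 CPM in astrocyte-only barcodes (SD, n = 3 libraries).

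The library 1 barcode stood apart in further measures. It had 13772 UMIs and 5.37% mitochondrial UMIs, whereas the other 6 had 3768 to 11554 UMIs and 1.11% to 2.41%. Without it the 2 remaining libraries gave *Flt1* levels of 6026 and 5145 CPM and *Cldn5* levels of 2220 and 5087 CPM, and no *Slc1a2* UMI.

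The 7 barcodes differed among themselves along the arterial, capillary and venous lists. The library 2 barcode with 60 UMIs of the 3 genes had *Vegfc* (4 UMIs), *Alpl* (5), *Mgp* (5), *Efnb2* (2) and *Bmx* (1), all of the arterial list. *Efnb2* also had 2 UMIs in the library 2 barcode with 73 and 1 in that with 98. *Gja4*, *Gja5*, *Gkn3* and *Fbln5* of the same list had none in any of the 7, and 0 of 11 detected arterial genes were higher than the reference classes in all 3 libraries. *Edn1*, the vasoconstrictor endothelin-1, had 25 UMIs in the barcode with 60 and 13 in the library 3 barcode with 67, which had none of the arterial list. The barcode with 60 had no UMI of *Slco1a4*, *Mfsd2a*, *Rgcc* or *Nostrin*. The library 1 barcode had *Vegfc* (3), *Alpl* (3), *Bmx* (2) and *Sema3g* (1), and its 59 UMIs of *Clu* are given with the reservation that *Clu* was 2747 CPM over the pooled astrocyte-only barcodes. No UMI of *Vegfc*, *Alpl* or *Bmx* was found in the other 5. *Mgp* was 1430 ± 136 CPM in pericyte-only barcodes, and the library 2 barcode had 6 UMIs of *Vtn* and *Rgs5*.

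The library 3 barcode with 84 UMIs of the 3 genes had the largest venous sum. It had *Tmsb10* (14 UMIs), *Vcam1* (11), *Vwf* (6), *Il1r1* (4) and *Icam1* (1), and its whole venous list summed to 46 UMIs, against 0 to 8 in each of the other 6. *Vcam1*, *Il1r1* and *Icam1* were at 0 in those 6. *Nr2f2* had 1 UMI in this barcode, *Ackr1*, *Selp*, *Sele* and *Lcn2* had none in any of the 7, and 1 of 11 detected venous genes was higher than the reference classes in all 3 libraries. Some of these genes were present in the reference classes too: *Tmsb10* and *Il1r1* were 228 ± 15 and 66.2 ± 7.19 CPM in pericyte-only barcodes, and *Vcam1* was 198 ± 3.29 CPM in astrocyte-only barcodes (SD, n = 3 libraries). This barcode was the one with 12 UMIs of *Vtn* and *Rgs5*, and the part of pericyte transcripts in its venous sum was not tested. Genes of the capillary list, which includes *Rgs5*, ran through all 7, with 38 to 186 UMIs each. *Mfsd2a* had 12 and 5 UMIs in the library 2 barcodes with 98 and 73 UMIs of the 3 genes, 8 and 3 in the library 3 barcodes with 67 and 49, 2 in library 1 and 0 in the remaining 2. Each of these differences rests on single barcodes and on few UMIs.

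**Figure D3:**
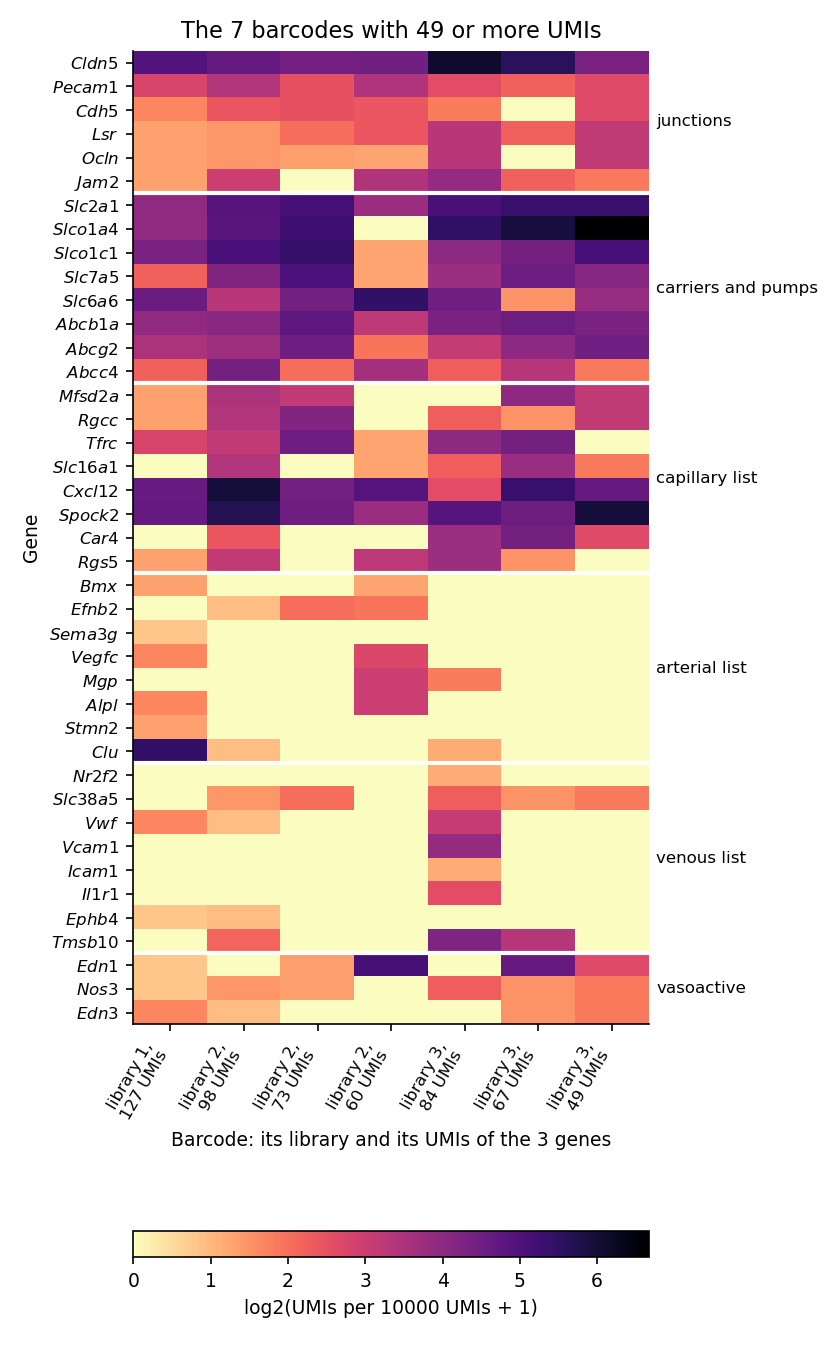
UMIs per 10000 UMIs (log2 after adding 1) of selected junction, carrier, pump and vasoactive genes and of detected genes of the capillary, arterial and venous lists in each of the 7 high-count barcodes. Vegfc, Alpl and Bmx are present in 2 barcodes, and Vcam1 and Il1r1 in 1, the library 3 barcode with 84 UMIs of the 3 genes.

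Low-count barcodes had a different content. None of the 66 had a UMI of *Cldn5*, *Pecam1*, *Cdh5*, *Ly6c1*, *Ly6a*, *Ptprb*, *Erg* or *Robo4*, which allows a UMI of each in up to 4.55% of them. *Cldn5* was present in 6 of 2205 pericyte-only (0.272%) and 2 of 8144 astrocyte-only barcodes (0.0246%). Their place in the selection came from *Flt1*, with 0 to 9 UMIs and a median of 4, and *Adgrf5*, with 0 to 7 and a median of 2.5; 58 had both.

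Pericyte genes were abundant in them. *Vtn*, which encodes vitronectin, was 11432 ± 1258 CPM in low-count and 12513 ± 103 CPM in pericyte-only barcodes (SD, n = 3 libraries), and *Rgs5* was lower than in pericyte-only barcodes, at 4853 ± 41.1 against 5631 ± 122 CPM. All 10 pericyte markers were detected, 1 of them higher than in pericyte-only barcodes in all 3 libraries, beside 7.73% of the 18396 genes detected. *Atp1b2* was 651 ± 69.2 CPM. Of 3617 genes with at least 30 UMIs in low-count barcodes, 3559 lay within 2-fold of pericyte-only barcodes in their mean log2 ratio. Across these genes, which are not independent replicates and share libraries with their reference, Pearson's r of the log2 levels was 0.94 with pericyte-only, 0.32 with high-count and 0.23 with astrocyte-only barcodes. The genes were kept by their UMIs in low-count barcodes. High-count barcodes held 56297 UMIs in all, against 11392816 in pericyte-only barcodes, so counting error differs between these r values and they are not ranked.

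Of these 3617 genes, 6 differed by at least 2-fold in the same direction in every library. *Flt1* and *Adgrf5* were higher by the selection. *Angpt2*, an antagonist of the TEK receptor, *Enah* and *Ttyh1* had 31, 30 and 41 UMIs, and passed the minimum of 30 UMIs only through being high in low-count barcodes, so nothing is read from their direction or from the number of genes. *Crip1* was 114 CPM against 298 CPM. Summed astrocyte markers were 216, 1391 and 2133 CPM in low-count barcodes of libraries 1, 2 and 3, against 281, 251 and 345 CPM in pericyte-only barcodes, and the 3 barcodes that met the astrocyte threshold lay in libraries 2 and 3. The part of these transcripts in the 6 differences was not tested.

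Several genes of the endothelial lists, *Flt1* and *Adgrf5* among them, were found in pericyte-only barcodes too. *Flt1* had a UMI in 783 of 2205 (35.5%) and *Adgrf5* in 853 (38.7%), against 8 (0.0982%) and 9 (0.111%) of 8144 astrocyte-only barcodes, which were deeper. *Emcn*, *Esam* and *Eng* were 364 ± 6.27, 269 ± 22.7 and 193 ± 6.7 CPM in pericyte-only and 386 ± 121, 215 ± 11.4 and 201 ± 26.2 CPM in low-count barcodes (SD, n = 3 libraries), beside 472 ± 108, 456 ± 371 and 509 ± 161 CPM in high-count barcodes. *Abcg2* and *Nostrin* were 64.9 ± 31.9 and 90.8 ± 24.5 CPM in low-count and 56.1 ± 1.57 and 78 ± 9.08 CPM in pericyte-only barcodes. Of the 6 markers that define the label, *Cldn5* and *Slc7a5* were the ones at or near 0 in low-count barcodes.

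A rule of 6 UMIs is met more often by deeper barcodes at the same level of the 3 genes, so the shares by depth only describe the selection. Among 2268 barcodes with pericyte and without astrocyte transcripts, high-count barcodes left out, 0 of 54 with fewer than 2500 UMIs met it, 5 of 1056 (0.473%) with 2500 to 5000, 30 of 955 (3.14%) with 5000 to 7500, 21 of 166 (12.7%) with 7500 to 10000 and 7 of 37 (18.9%) above that. The summed level of the 3 genes was 220, 223, 252, 322 and 272 CPM in the same order. When every barcode was thinned to 3669 UMIs, 15 of the 9994 barcodes deep enough to be thinned met the rule.

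**Figure D4:**
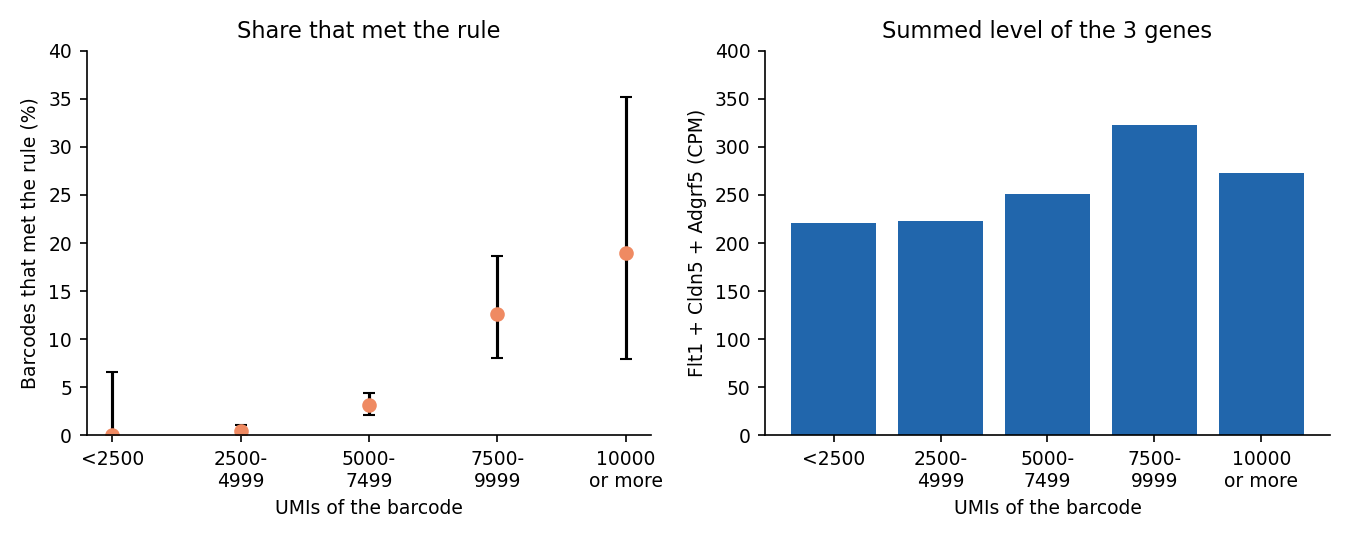
Barcodes with pericyte and without astrocyte transcripts by their depth in UMIs. Left, share that met the rule, with exact binomial 95% intervals, which is 0% in the shallowest and 18.9% in the deepest bin; right, summed level of the 3 genes in CPM, which runs from 220 to 322.

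Hashtag antibodies gave a measure that the selection did not use. Before pooling, the cells of each mouse were stained with an antibody carrying a barcode oligonucleotide, and such antibodies against mouse cells bind CD45 and MHC class I. The strongest hashtag of a barcode had a median of 170 UMIs in high-count, 27.5 in low-count, 18 in pericyte-only and 4 in astrocyte-only barcodes. The MHC class I genes *B2m* and *H2-D1* followed the same order between the high-count, pericyte-only and astrocyte-only classes, *B2m* with 728 ± 315, 199 ± 11.3 and 31.1 ± 1.02 CPM and *H2-D1* with 498 ± 136, 187 ± 5.94 and 5.71 ± 0.85 CPM (SD, n = 3 libraries). In low-count barcodes they were 164 ± 29.9 and 166 ± 24.7 CPM.

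Each of the 7 high-count barcodes was dominated by 1 hashtag. The oligonucleotides they carried are shown because they tie 5 of the 7 to a listed mouse, written 5′ to 3′ as deposited.
Hashtag 5 (library 1, no mouse listed, and library 2, FC mouse 4): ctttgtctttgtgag
Hashtag 14 (library 2, FC mouse 3): ctttcgccaactctg
Hashtag 7 (library 3, FR mouse 4): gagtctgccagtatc
Hashtag 12 (library 3, NoFR mouse 4): ctgcaaatataacgg
Hashtag 15 (library 3, no mouse listed): ccctctctggattct
The library 1 barcode had 570 UMIs of hashtag 5 and 10 of the next hashtag. In library 2, the barcodes with 98, 73 and 60 UMIs of the 3 genes had 798, 52 and 170 UMIs of the strongest hashtag and 7, 3 and 5 of the next. In library 3, the barcodes with 84, 67 and 49 had 272, 135 and 67 UMIs against 2 of the next in each. In all 7 the strongest hashtag reached 10 UMIs and was no less than 3 times as high as the runner-up, as it did in 50 of the 66 low-count and 1521 of the 2205 pericyte-only barcodes.

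Calls by HTODemux, which models each hashtag's background within a library, were less clear. It called doublets in 14 of 24, 13 of 26 and 5 of 23 of the chosen barcodes, or 43.4 ± 19.2% (SD, n = 3 libraries). The shares were 58.3%, 50% and 21.7% in libraries 1, 2 and 3, beside 43.2%, 27.5% and 24.5% of pericyte-only and 18%, 9.68% and 7% of astrocyte-only barcodes of the same libraries. Exact intervals of the first were 36.6% to 77.9%, 29.9% to 70.1% and 7.46% to 43.7%. Among high-count barcodes, 2 were called doublets, those with 570 and 170 UMIs of hashtag 5, and 5 singlets. Under the stricter criterion of 10 UMIs and 3 times the runner-up, 57 of the 73 chosen barcodes were singlets. A barcode that failed it counted as a doublet only if its second hashtag also reached 10 UMIs, and otherwise as negative. The doublet share was then 9.68%, so this share depended on the calling rule. Cells of 1 mouse that share a droplet carry 1 hashtag and are not seen by either rule.

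The behavioural groups were compared over mice by the share of chosen barcodes among singlets. Of the 40 chosen barcodes called singlets, 26 had a hashtag listed for a mouse. The NoFC share was 1.46 ± 0.998% and the FC share 1.2 ± 0.609%, whereas NoFR mice had 1.02 ± 1.07% and FR mice 0.384 ± 0.27% (SD, n = 4 mice in each). In NoFC mice 1 to 4 it was 0% (0 of 158 singlets, which allows up to 1.9%), 1.96%, 2.21% and 1.67%. FC mice had 1.4%, 0.629%, 1.97% and 0.813%. NoFR mice had 0.442%, 0% (0 of 107, up to 2.8%), 2.44% and 1.2%, and FR mice 0.515%, 0% (0 of 120, up to 2.5%), 0.613% and 0.408%. A mouse contributed at most 4 chosen barcodes, and the ranges of NoFC, FC and NoFR overlapped.

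All 4 FR mice lay below all 4 FC mice, with a difference of means (FR minus FC) of -0.818 percentage points. The nearest were FR mouse 3, with 1 chosen barcode among 163 singlets, and FC mouse 2, with 1 among 159. They differed in their number of singlets alone, and the full separation of the groups rests on their order. The exact 2-sided permutation p was 0.0286, the smallest that 4 mice against 4 allow, and 0.171 after Benjamini-Hochberg adjustment over the 6 pairs. Over the alternatives tried, the difference was -0.164 to -2.18 points and its adjusted exact permutation p 0.0857 to 1. The other 5 pairs had an exact permutation p of 0.143 to 0.8 and adjusted p of 0.429 to 0.8. No pair passed an adjusted p of 0.05. Within library 1, with 2 mice of each group, NoFC and FC mice had means of 0.98% and 1.01%, and NoFR and FR mice 0.221% and 0.258%. Library 2 gave 2.21% in 1 NoFC mouse, 1.39% in 2 FC mice and 0.613% in 1 FR mouse, and library 3 gave 1.67% in 1 NoFC mouse, 1.82% in 2 NoFR mice and 0.408% in 1 FR mouse. With the library as a term and labels permuted within libraries, a test added after the data were seen, FR minus FC was -0.765 points over the 7 mice of the 2 libraries they share, at an exact permutation p of 0.167 over 18 arrangements. The exact permutation p of the other 5 pairs was then 0.25 to 0.667, and the adjusted p was 0.667 in all 6. Barcodes with pericyte and without astrocyte transcripts made up 27.6 ± 2.83% of the singlets of FR mice and 34.7 ± 10.8% of those of FC mice, with per-mouse median depths of 4886 ± 177 and 4974 ± 381 UMIs (SD, n = 4 mice); their part in the difference was not tested. High-count barcodes called singlets with a listed mouse numbered 4, of which 2 belonged to FC, 1 to NoFR, 1 to FR and 0 to NoFC mice, too few for a comparison. No mouse had 10 chosen barcodes, so genes were not compared between behavioural groups.

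**Figure D5:**
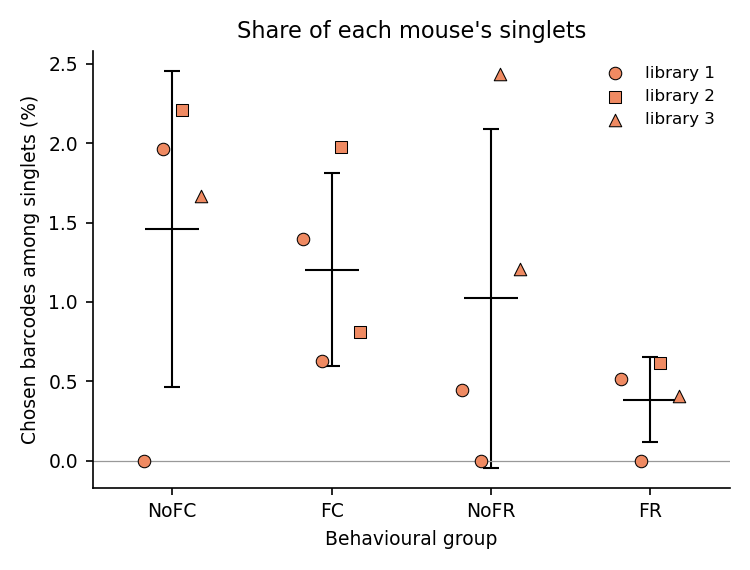
Share of chosen barcodes among the singlets of each mouse (%), by behavioural group, with the library as marker shape and mean ± SD as bars (n = 4 mice). FR mice lie between 0% and 0.613% and FC mice between 0.629% and 1.97%; NoFC and NoFR mice overlap with both.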

How the data were processed

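The authors deposited raw counts of UMIs per gene and per hashtag for every called barcode of 3 gene expression libraries, with a table of the mouse behind each hashtag. The submitters' processing notes name Cell Ranger 3.0 and mm10, whereas the file headers name Cell Ranger 7.0.0. Hashtag counts were read from the same matrices as the gene counts. Members and gene lists were chosen with earlier results of these data known. Barcodes were filtered by the selection rule, and UMIs were summed per class and library and expressed as CPM. Log2 ratios used a prior of 5 CPM. Named genes were the rule's genes, the 25 highest and 5 lowest by the lowest ratio of 3 libraries at 30 UMIs or more, and list members that were highest, lowest or at 0. Some list genes were chosen as examples after their values were seen. Hashtags were called with HTODemux (Seurat 5.3.0, R 4.3.3, quantile 0.99) after leaving out hashtags with under 1000 UMIs in a library, 3 in library 2. No doublets were removed from the classes described, whereas the shares of mice used singlets only. Some list and named genes are not reported here. Shares of mice were compared by exact permutation, also within libraries. Scripts ran in Python 3.11.15 and were tested on simulated data. Depth is given per class. The p-values measure the spread of the shares of these mice, which includes the counting error of at most 4 chosen barcodes per mouse.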

Additional observations from a re-analysis of the deposited data

Results flagged for a closer look

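Of the 40 chosen barcodes called singlets, 14 (35%) carried a hashtag for which the deposited table lists no mouse in that library. The same held for 1553 of all 4198 singlets (37%), so these barcodes entered no comparison of behavioural groups. Among them was the high-count barcode of library 3 with hashtag 15, and the high-count barcode of library 1, called a doublet, also had an unlisted hashtag as its strongest. Within the 4 behavioural groups, no mouse's share stood far from the others by Dixon's test.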

How the results depend on the processing

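The number of chosen barcodes was set by the threshold: it was 415 with at least 3 UMIs of the 3 genes, 7 with at least 12, and 15 after thinning, and it stayed at 73 with at least 100 genes or without the mitochondrial filter. Shares and depths here are means over the 3 libraries. With at least 3 UMIs the pericyte share was 97.6% and the median depth 6154 UMIs; with at least 12, which leaves the high-count barcodes, the astrocyte, pericyte and neither shares were 33.3 ± 57.7%, 11.1 ± 19.2% and 55.6 ± 50.9% and the depth 8808 ± 4381 UMIs (SD, n = 3 libraries), where library 1 is a single barcode. Thinning gave 51.7% with pericyte transcripts and 41.7% with neither. Without the high-count barcodes, an alternative added after seeing the data, these were 100% and 0%, and 18 list genes were higher in all 3 libraries. Among all 73 barcodes, 37 list genes were higher when at least 30 UMIs were required, which tests fewer genes. Strict hashtag calls gave a doublet share of 9.68%.

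The difference between behavioural groups changed sign in 11 of 156 values under alternatives, and none reached an adjusted p of 0.05, the lowest being 0.0857 by the exact permutation test. NoFR against FC became 1.87 percentage points with at least 3 UMIs. With at least 12, FC, NoFR and FR against NoFC became 0.266, 0.301 and 0.102 points, and NoFR against FC 0.0351. Strict calls put FC above NoFC by 0.000716 points and FR above NoFR by 0.495, and leaving astrocyte-only barcodes out of the singlets gave 0.562 for FC against NoFC. Leaving out 1 mouse moved NoFR against FC between -0.654 and 0.159 points. Without 1 library, the pericyte share was 89.9% to 93.6%. The list genes were then 67 to 84, but they had to be higher only in the libraries kept, a weaker demand than all 3. The share with neither set, 6.74% over all libraries, was 10.1% without library 1 and 4.35% without library 2. The remaining values for single genes and lists moved beyond 1 SD in 150 of 645 alternatives. The 25 named genes changed sign only without the high-count barcodes, but their choice by the lowest library largely fixed the sign elsewhere. Tests of genes between groups, with edgeR or DESeq2, were not run, since the minimum of 10 chosen barcodes per mouse was met by no mouse. No paired analysis was possible because the mice of different groups are different animals and their numbers do not pair them. Permuting labels within libraries kept each direction, but its 6 to 24 arrangements could not reach an adjusted p of 0.05. Depth limits the high-count class most, at 53.3 CPM for 3 UMIs.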
